A study of Mus musculus with 24 samples.

Results

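The solute carrier (Slc) genes of mouse bone marrow-derived macrophages (BMDMs) are described here, gene by gene, across 2 genotypes and 3 activation states. A row of the count table belonged to the family if its symbol was Slc followed by a digit and its raw counts, summed over the 24 libraries, reached 120, with 4 genes that met these terms left out by name (Slc7a7, Slc7a2, Slc16a3 and Slc15a3). This gave 44 members out of 376 Slc symbols and 24557 genes in the table. Of the 376 symbols, 251 had at least 1 count and 125 had 0 counts in every library. The members together held 66910 counts, or 0.523% of all counts. Their summed count chose them and is given only as a description. Just inside the limit lay Slc7a11 with 145 counts, Slc7a15 with 137 and Slc2a6 with 126, and just outside it lay Slc11a1 with 113, Slc25a3 with 109 and Slc9a3r1 with 106.

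BMDMs arise when marrow cells are cultured with M-CSF, the growth factor of the macrophage lineage, here at 10 ng/ml over 7 days. The cells came from Ltb4r2-/- mice on the C57BL/6J background, a global deletion of the receptor BLT2 in every cell type, or from WT littermates. They were polarized for 16 h into an M1-like state with 10 ng/ml lipopolysaccharide (LPS) and 25 ng/ml interferon-γ (IFN-γ), into an M2-like state with 10 ng/ml interleukin-4 (IL-4), or left unpolarized (M0). Each of the 6 groups, Ltb4r2-/- M1, Ltb4r2-/- M2, Ltb4r2-/- M0, WT M1, WT M2 and WT M0, had 4 libraries, titled as biological replicates. The study describes its replicates as coming from different animals, and the labels do not say which animal gave which library.

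Libraries held 427825 to 729580 counts, so the members with the fewest counts were measured with a handful of counts per library. In the libraries labelled Ltb4r2-/-, Ltb4r2 had 2 counts in 1 library each of M1 and M2 and 0, 1, 4 and 5 counts in M0, and it had 0 counts in all 12 WT libraries. The targeted gene therefore did not check the genotype labels, and groups are called as their libraries were labelled. At a mean of 10 counts or more, each group held 9 to 11 of 15 macrophage markers. All 6 M1 markers reached it in both M1 groups, and 5 of 6 M2 markers in both M2 groups. None of the markers of granulocytes, lymphocytes, mast cells or stroma did, and of 6 erythroid markers 1 did in Ltb4r2-/- M0, Alas2 at a mean of 17.2 CPM. Of 6 dendritic cell markers 1 or 2 reached it in each group and 3 or 4 were at 0, and Xcr1 averaged 873.5 CPM in Ltb4r2-/- M1 and 667 CPM in WT M1, against at most 59.4 CPM in other groups. In bulk RNA, fewer cells of a type and less RNA per cell cannot be told apart, and the part of these markers in the M1 values was not tested.

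Solute carriers move nutrients, ions and metals across the plasma membrane and the membranes of organelles, by facilitated diffusion or coupled to ion gradients. In macrophages they set the supply of cystine, glutamine, lactate, copper, iron and zinc during activation. Iron leaves macrophages through ferroportin (Slc40a1), and cystine enters through the antiporter xCT (Slc7a11) for the synthesis of glutathione. In the text that follows, levels are CPM, the counts of a gene scaled to library size, on the TMM scale of 24 libraries, and a difference is a log2 fold change ± its standard error (SE). A member "rose" or "fell" where the quasi-likelihood test of edgeR, adjusted by Benjamini-Hochberg over all genes tested, gave a value under 0.05.

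Promoter windows, from 250 bases before to 50 bases after a start annotated by RefSeq, were found for 32 of the 44 members in GRCm38.p6. Those of 3 members are shown, as examples of members with no opposite-strand exon whose libraries did not overlap between M0 and a polarized state. The windows are chr3:50443564-50443863 (Slc7a11, minus strand), chr2:165473148-165473447 (Slc13a3, minus strand) and chr4:62286179-62286478 (Slc31a2, plus strand), each 5′ to 3′ in the direction of the gene, with motif matches in capitals.
Slc7a11: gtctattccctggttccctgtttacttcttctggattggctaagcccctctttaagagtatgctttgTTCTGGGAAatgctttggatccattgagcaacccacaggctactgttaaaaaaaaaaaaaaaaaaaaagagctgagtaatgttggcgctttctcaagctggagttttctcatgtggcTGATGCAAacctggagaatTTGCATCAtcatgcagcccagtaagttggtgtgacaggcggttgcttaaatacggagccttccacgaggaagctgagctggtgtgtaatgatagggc
Slc13a3: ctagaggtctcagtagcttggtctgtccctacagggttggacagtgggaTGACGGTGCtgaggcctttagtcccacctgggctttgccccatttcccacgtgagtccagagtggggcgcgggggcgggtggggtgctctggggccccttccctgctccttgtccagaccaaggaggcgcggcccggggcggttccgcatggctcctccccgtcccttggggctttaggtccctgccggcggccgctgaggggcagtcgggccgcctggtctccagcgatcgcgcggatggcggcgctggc
Slc31a2: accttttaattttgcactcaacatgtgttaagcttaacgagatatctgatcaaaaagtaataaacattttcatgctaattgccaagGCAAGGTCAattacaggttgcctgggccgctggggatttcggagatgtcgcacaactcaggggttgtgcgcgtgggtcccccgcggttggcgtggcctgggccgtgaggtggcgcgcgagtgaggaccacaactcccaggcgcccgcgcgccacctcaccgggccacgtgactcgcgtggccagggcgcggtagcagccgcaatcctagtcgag
Matches were sought on both strands. The Slc7a11 window held TTCNNNGAA, the form bound by STAT factors, 183 bases before the start, and TGATGNAA, the form bound by ATF4 with C/EBP factors, 66 and 47 bases before it and on opposite strands. Over all 32851 windows, 8.3% held the STAT form and 3.97% the TGATGNAA form, and 2 of 32 members held each. The capitals in the Slc13a3 and Slc31a2 windows mark TGACNNNGC, the core bound by NRF2, 201 and 164 bases before the start. That core was in 12.4% of all windows and in 8 of 32 members. A wider STAT form, with 1 more base between the same half-sites as bound by STAT6, was in 1 of 32 members and 6.95% of windows, and the core of the interferon-stimulated response element in 1 of 32 members and 3.44% of windows. These matches are letters only, and binding was not measured.

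What a member's count stands for depends on strand. The libraries were strand-specific, and the strand setting used in counting is not given in the sources used here. Without it, the strand that a count stands for is not known for any member, with or without an overlap. Where exons overlap, reads of a member and of a gene on the opposite strand cannot be told apart. In GENCODE M21 on GRCm38, 22 of the 44 members (50%) share 29 to 1165 bases of exon with a gene on the opposite strand, against 81 of 376 Slc symbols (21.5%). Such an overlap is found in 24.1% of all positioned genes and in 60.6% of those with at least 120 counts. The overlapping members held 88.7% of the members' counts, with a median of 897.5 summed counts against 260.5 for the 22 others. All 10 members with the highest summed count overlapped. The opposite-strand gene was itself in the table for 14 members, and the member had more counts than its partner in 12 of them, by over 10 times in 6.

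The first of these was Slc5a2, the glucose cotransporter SGLT2 known from the kidney, on chromosome 7 from 128265657 to 128272430, with 9399 counts against 6 for BC017158. Slc5a6, a multivitamin transporter, had 8470 counts against 16 for Atraid, and Slc24a5, a sodium/calcium exchanger of pigment granules, had 7710 against 1167 for Myef2. The order was the other way round in the other 2, among them Slc48a1, with 162 against 1798 for Hdac7. In the table at large, the genes with an opposite-strand exon took 90.6% of the counts of positioned genes. Genes that most cells use heavily were low, with 30 to 133 counts per library for Actb, 7 to 75 for Gapdh and 0 to 12 for Ppia, and Actb ranked 761 by summed count. The part of strand in the members' levels and changes was not tested, so members with such an overlap are named below as overlapping. The words "no overlap" say only that no opposite-strand exon is annotated, and the unknown setting bears on those members too. The member without one that had the most counts was Slc31a2, with 1927. Per kilobase of exon, mean levels over the 24 libraries ran from 0.673 CPM for Slc38a1 and 0.941 for Slc7a11 to 69.3 for Slc31a2, 246.8 for Slc5a2 and 268.7 for Slc24a5.

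**Figure D1:**
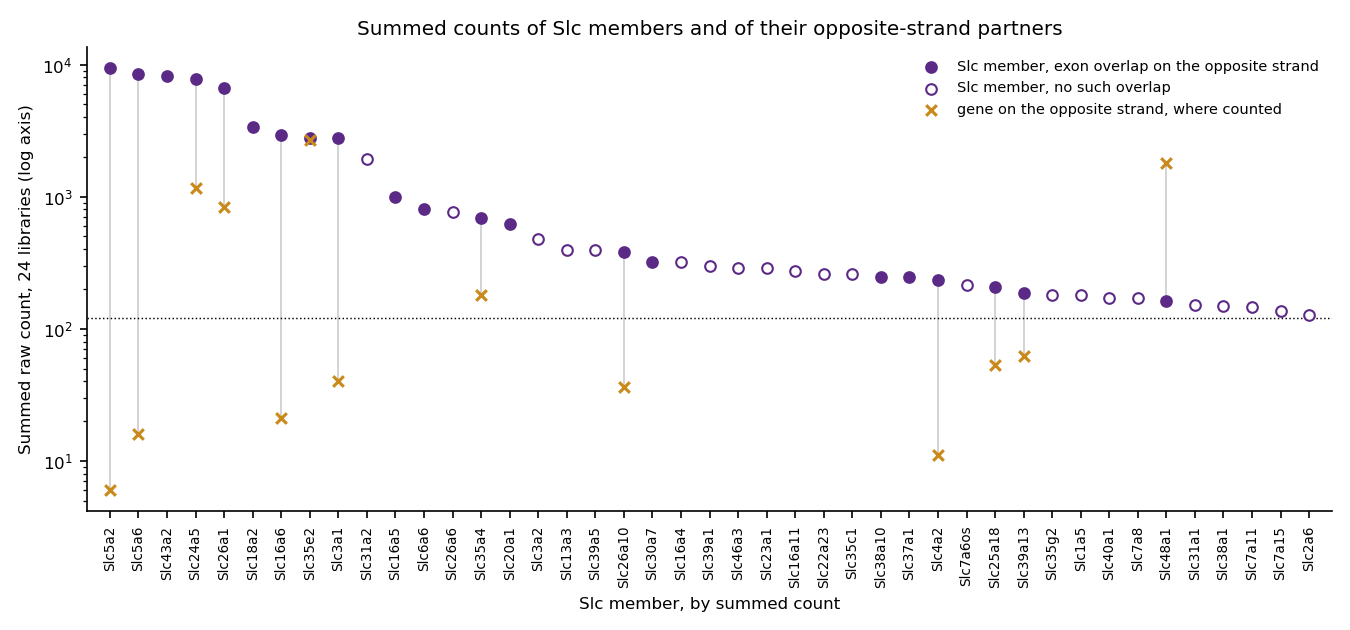
Summed raw counts over 24 libraries (y axis, log scale) of 43 Slc members in order of their count (x axis), filled where an exon of the opposite strand overlaps and open where none does, with crosses for the opposite-strand gene where it was counted and a dotted line at 120. The 9 leftmost members are all filled, from Slc5a2 with 9399 counts to Slc3a1 with 2770.

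The minimum-count filter of the 24-library fit kept 43 of the 44 members and left out Slc2a6, the glucose transporter family member GLUT6. It kept Slc13a3 and Slc7a15 through the libraries of 1 state each. Their values are a description, though the counts of members called between states below include them. Slc7a11 and Slc48a1 passed through M1 and M2 libraries with none of M0, and Slc7a8 and Slc31a1 with none of M2. Others, among them Slc30a7, Slc16a4, Slc38a10, Slc4a2, Slc25a18, Slc35g2, Slc1a5 and Slc40a1, passed with none of M1. Calls of such members against the missing state carry the same limit. Slc2a6 had 5.71 to 12.3 CPM in Ltb4r2-/- M1, 8.67 to 17.1 in WT M1, 1.71 to 18.8 in Ltb4r2-/- M2, 0 to 14.1 in WT M2, 8.43 to 21.4 in Ltb4r2-/- M0 and 3.71 to 17.1 in WT M0, and these ranges overlapped. In M1 against M0, 6 members rose and 16 fell in Ltb4r2-/- cells, where 27.1% of all 3047 genes tested rose and 25.7% fell. In WT cells 6 rose and 16 fell as well, with 26.9% of all genes rising and 24.3% falling. So 37.2% of tested members fell and 14% rose in each genotype. The median log2 fold change over the members was -0.51 in Ltb4r2-/- and -0.35 in WT cells, against -0.002 and -0.025 over all genes tested.

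Scaling by total count alone, without TMM factors, moved the median of all genes in M1 against M0 to -0.60 in Ltb4r2-/- and -0.64 in WT cells. The calls then split into 3 higher and 26 lower in Ltb4r2-/- and 1 higher and 24 lower in WT cells. All M1 changes below are relative to the TMM scale. In M2 against M0, 5 members rose and 8 fell in Ltb4r2-/- cells, or 11.6% and 18.6% of the members, with 16.9% of all genes rising and 15% falling. In WT cells 4 rose and 7 fell, or 9.3% and 16.3% of the members, with 15.2% and 11.8% of all genes. These small counts rested partly on single libraries. Without Ltb4r2-/- M0 replicate 4, 3 members rose in Ltb4r2-/- cells. In WT cells 2 rose without M0 replicate 3, M0 replicate 4 or M2 replicate 4, and 4 fell without M2 replicate 1 or 2. Both responses share their M0 libraries, so they are given side by side only. By state, 15 members had their highest mean in M0 in both genotypes, 10 in M1 and 10 in M2, and 9 differed between the genotypes.

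**Figure D2:**
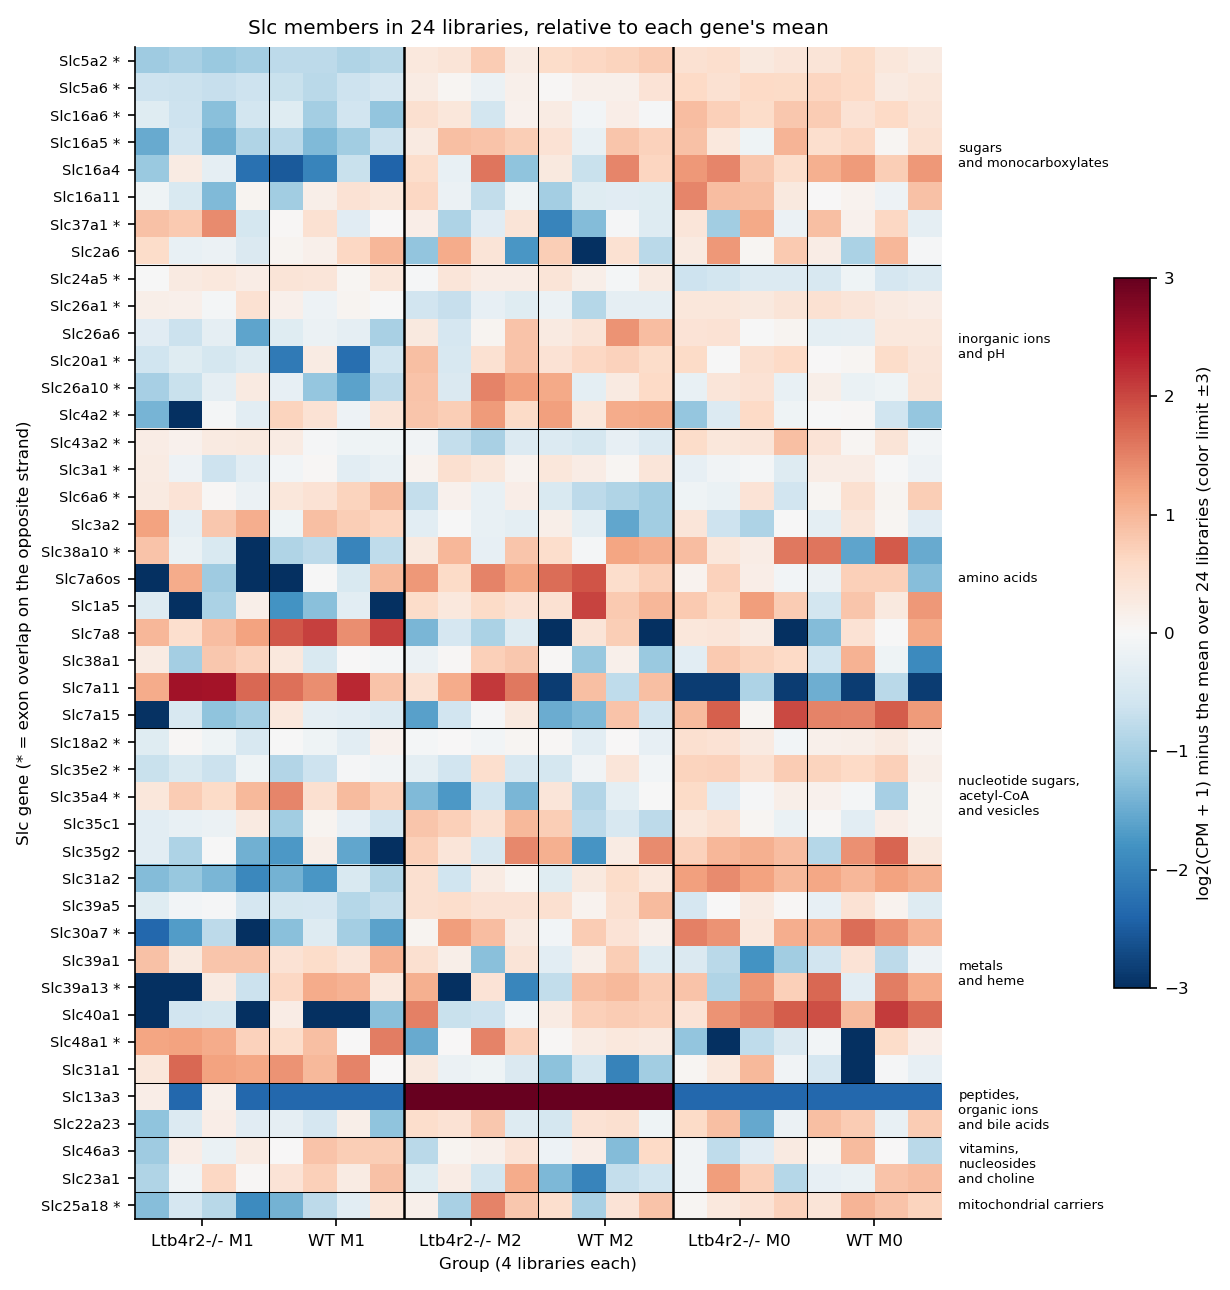
Each row is 1 of 43 Slc members, grouped by substrate class, and each column 1 library in 6 groups of 4, with color for log2(CPM + 1) minus the gene's mean over 24 libraries, limited to ±3, and an asterisk for an opposite-strand exon overlap. Slc13a3 stands out in the 8 M2 libraries, Slc7a11 is high in the 8 M1 libraries, and Slc31a2, Slc30a7 and Slc40a1 are low there.

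The amino acid class had 11 members, with Slc7a2 and Slc7a7 left out by name. Of these 11, 2 rose and 2 fell in M1 against M0 in Ltb4r2-/- cells, and 2 rose and 3 fell in WT cells. Slc7a11 (chromosome 3, 49892526 to 50443614, no overlap), the light chain of the cystine/glutamate antiporter xCT, had 14.8, 40.8, 39.8 and 22.8 CPM in Ltb4r2-/- M1, against 0, 0, 2.81 and 0 CPM in Ltb4r2-/- M0. In WT cells it had 21.7, 18.1, 33.8 and 12.2 CPM in M1, against 1.61, 0, 3.10 and 0 CPM in M0. Both sets of M1 libraries lay above those of M0. M0 held 2 counts in all in Ltb4r2-/- and 3 in WT cells, so the ratio of M1 to M0 was 38.6 in Ltb4r2-/- (95% exact counting interval 10.1 to 328) and 16.2 in WT cells (5.15 to 82.2). It rose in both (adjusted p = 1.38e-05 in Ltb4r2-/- and 0.000291 in WT cells, edgeR quasi-likelihood). The 5 libraries through which it passed the filter were of M1 and M2, where it was high. Its tests against M0 are therefore a description.

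In M2, Slc7a11 had 8.94, 14.6, 30.4 and 20.6 CPM in Ltb4r2-/- cells, all above the Ltb4r2-/- M0 libraries, a ratio of 22.6 (5.86 to 194). WT M2 libraries had 0, 12.5, 3.26 and 12.5 CPM, which overlapped with WT M0, a ratio of 5.04 (1.41 to 27.3). It rose in M2 in Ltb4r2-/- cells (adjusted p = 0.000348, edgeR) and did not pass in WT cells (adjusted p = 0.0887). The difference between these 2 responses, 1.995 ± 1.56 on the log2 scale, did not pass either (adjusted p = 1.0). Intervals of these ratios cover counting error only.

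Slc3a2, the heavy chain CD98 that carries Slc7a11 and Slc7a8 to the membrane, had 83.7, 29.5, 63.2 and 77.1 CPM in Ltb4r2-/- M1, against 45.9, 22.9, 18.3 and 35.2 CPM in Ltb4r2-/- M0. It rose there by 1.06 ± 0.37 (adjusted p = 0.0148, edgeR) with overlapping groups, and the call was lost without any of 4 libraries and under total-count scaling. In WT cells it differed by 0.62 ± 0.36 and did not pass (adjusted p = 0.159). Slc7a8, the large neutral amino acid transporter LAT2 (chromosome 14, 54722209 to 54781946, no overlap), had 13.6 to 22.8 CPM in Ltb4r2-/- M1, against 0 to 12.2 CPM in Ltb4r2-/- M0, a difference of 1.07 ± 0.69 that did not pass (adjusted p = 0.197). WT cells had 36.9, 41.6, 26 and 41.5 CPM in M1, against 3.21, 13, 9.31 and 21.8 CPM in M0, a rise of 1.64 ± 0.64 (adjusted p = 0.0308). The M1 libraries were above the M0 libraries in each genotype. The WT call was lost under total-count scaling and without any of 6 libraries.

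Slc1a5, the glutamine transporter ASCT2, fell in M1. It had 7.38, 0, 4.68 and 11.4 CPM in Ltb4r2-/- M1, against 18, 15.3, 25.3 and 17.6 CPM in Ltb4r2-/- M0 (-1.72 ± 0.64, adjusted p = 0.0225, edgeR), a call lost without Ltb4r2-/- M0 replicate 3 or M1 replicate 2 or 3. WT cells had 2.17, 3.62, 7.79 and 0 CPM in M1, against 6.43, 18.6, 12.4 and 25.8 CPM in M0 (-2.15 ± 0.69, adjusted p = 0.0101), with 1 M1 library above the lowest M0 library. Slc7a15, of the same family as Slc7a11, was lower than M0 in both polarized states and in both genotypes. It passed the filter through M0 libraries alone, where it was high, so its values are a description. It had 0 to 4.53 CPM in Ltb4r2-/- M1, 1.49 to 8.57 in Ltb4r2-/- M2 and 7.03 to 29.4 in Ltb4r2-/- M0. In WT cells it had 4.88 to 8.67 CPM in M1, 1.76 to 13.1 in M2 and 17.9 to 26.4 in M0. Its log2 fold changes were -2.85 ± 0.73 and -1.78 ± 0.62 in M1 and -1.86 ± 0.61 and -1.93 ± 0.61 in M2, in Ltb4r2-/- and WT cells in turn.

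Slc43a2, the neutral amino acid transporter LAT4 (overlapping Gm45606), fell in M2. Its levels were 568, 372, 309 and 454 CPM in Ltb4r2-/- M2, against 895, 764, 781 and 1134 CPM in Ltb4r2-/- M0, a fall of -1.06 ± 0.15 (adjusted p = 8.62e-07, edgeR). WT cells had 455, 422, 511 and 455 CPM in M2, against 801, 628, 796 and 569 CPM in M0, a fall of -0.60 ± 0.15 (adjusted p = 0.00265). No M2 library reached an M0 library in either genotype. The taurine transporter Slc6a6 (overlapping Gm44981) had 37.3 to 70.3 CPM in Ltb4r2-/- M2 and 41.1 to 81.5 CPM in Ltb4r2-/- M0 (-0.05 ± 0.26, adjusted p = 0.927). It fell in WT cells, with 29.2 to 44.1 CPM in M2 against 64.3 to 103 CPM in M0 (-1.15 ± 0.27, adjusted p = 0.00128), and the test of that difference is given with the interactions. The remaining members were Slc3a1, Slc38a1, Slc38a10 and Slc7a6os, the last of which carries the symbol for its place opposite Slc7a6 and is no transporter. Slc3a1, the heavy chain of the cystine and basic amino acid transporter of kidney and gut (overlapping Prepl), rose in M2 in Ltb4r2-/- cells by 0.45 ± 0.15 (adjusted p = 0.0212, lost without M0 replicate 4 or M2 replicate 2), and Slc38a10 (overlapping Gm11769) fell in M1 in WT cells by -2.04 ± 0.71 (adjusted p = 0.0172, lost without M0 replicate 1 or 3). Slc3a1 differed in M2 in WT cells by 0.18 ± 0.15 (adjusted p = 0.451, edgeR) and Slc38a10 in M1 in Ltb4r2-/- cells by -1.085 ± 0.66 (adjusted p = 0.168). Slc38a10 passed the filter with no M1 library, so its M1 call is a description.

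Of 8 metal and heme transporters, 2 rose and 3 fell in M1 in Ltb4r2-/- cells, and 1 rose and 3 fell in WT cells. The copper transporters Slc31a1 and Slc31a2 both lie on chromosome 4, from 62360727 to 62391769 and from 62262562 to 62298411, and neither overlaps an opposite-strand exon. Slc31a2 (CTR2), a copper transporter of late endosomes and lysosomes, had 44.3, 49.9, 42.1 and 28.5 CPM in Ltb4r2-/- M1, against 262, 299.5, 259 and 219 CPM in Ltb4r2-/- M0. WT cells had 41.2, 32.6, 80.5 and 58.5 CPM in M1, against 248, 221, 258 and 234 CPM in M0. It fell by -2.63 ± 0.25 (adjusted p = 4.61e-11, edgeR) in Ltb4r2-/- and by -2.21 ± 0.24 (adjusted p = 1.16e-09) in WT cells.

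M2 libraries of Slc31a2 lay between those of M1 and M0, at 156, 73.1, 133 and 116 CPM in Ltb4r2-/- cells and 86.4, 137, 163 and 138 CPM in WT cells. Against M0 this was a fall of -1.10 ± 0.21 (adjusted p = 7.98e-05, edgeR) in Ltb4r2-/- and -0.87 ± 0.21 (adjusted p = 0.00175) in WT cells. The 3 states did not overlap in either genotype. Slc31a1 (CTR1), the copper importer of the plasma membrane, did not fall in M1. It had 12.3, 34, 23.4 and 22.8 CPM in Ltb4r2-/- M1, against 9.98, 12.2, 19.7 and 8.80 CPM in Ltb4r2-/- M0 (0.85 ± 0.53, adjusted p = 0.177), and these groups overlapped. In WT cells it had 26, 19.9, 28.6 and 9.76 CPM in M1, against 6.43, 0, 9.31 and 7.93 CPM in M0, with no overlap. It rose there by 1.77 ± 0.58 (adjusted p = 0.0107, lost without WT M0 replicate 2 and under total-count scaling).

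Ferroportin, Slc40a1 (chromosome 1, 45908068 to 45926523, no overlap), fell in M1. It had 0, 4.53, 4.68 and 0 CPM in Ltb4r2-/- M1, against 9.98, 19.9, 22.5 and 27.9 CPM in Ltb4r2-/- M0 (-2.94 ± 0.78, adjusted p = 0.00189, edgeR). WT cells had 8.67, 0, 0 and 2.44 CPM in M1, against 30.6, 14.9, 34.1 and 25.8 CPM in M0 (-3.15 ± 0.74, adjusted p = 0.000539). No M1 library reached an M0 library in either genotype. In M2 against M0 it differed by -1.01 ± 0.59 in Ltb4r2-/- and -1.16 ± 0.58 in WT cells and did not pass (adjusted p = 0.204 and 0.149). Slc30a7, a zinc transporter of the Golgi (overlapping Gm6649), had 0 to 9.37 CPM in Ltb4r2-/- M1 against 21.1 to 49.9 CPM in M0 (-3.07 ± 0.53, adjusted p = 9.25e-06). In WT cells it had 4.88 to 12.7 CPM in M1 against 35.7 to 55.7 CPM in M0 (-2.37 ± 0.47, adjusted p = 6.11e-05).

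Of the other metal transporters, 2 rose in M1 in Ltb4r2-/- cells. Slc39a1, the zinc importer ZIP1, had 27.2 to 41.8 CPM in Ltb4r2-/- M1 against 5.62 to 16.0 CPM in Ltb4r2-/- M0 (1.76 ± 0.43, adjusted p = 0.00087, edgeR), and it rose in Ltb4r2-/- M2 by 1.14 ± 0.44 (adjusted p = 0.0446). This M2 call lay near the threshold with overlapping libraries, and the 5 members that rose in Ltb4r2-/- M2 became 3 with no filter. WT cells had 28.6 to 46.3 CPM in M1 against 12.4 to 29.7 CPM in M0 (0.86 ± 0.41, adjusted p = 0.0797), and M2 differed from M0 by 0.365 ± 0.41 (adjusted p = 0.578). Slc48a1, the heme transporter HRG1 (overlapping Hdac7 by 29 bases), had 17.1 to 24.9 CPM in Ltb4r2-/- M1 against 0 to 7.34 CPM in M0 (2.34 ± 0.69, adjusted p = 0.00475). It passed the filter through M1 and M2 libraries with none of M0, so its tests against M0 are a description. WT cells had 10.4 to 31.7 CPM in M1 against 0 to 15.5 CPM in M0 (1.02 ± 0.64, adjusted p = 0.184). Whether these responses differ between the genotypes is given with the interactions. The zinc importers Slc39a5 and Slc39a13 passed in neither comparison with M0. For Slc39a5, M1 differed from M0 by -0.22 ± 0.33 in Ltb4r2-/- and -0.67 ± 0.34 in WT cells (adjusted p = 0.59 and 0.0958).

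**Figure D3:**
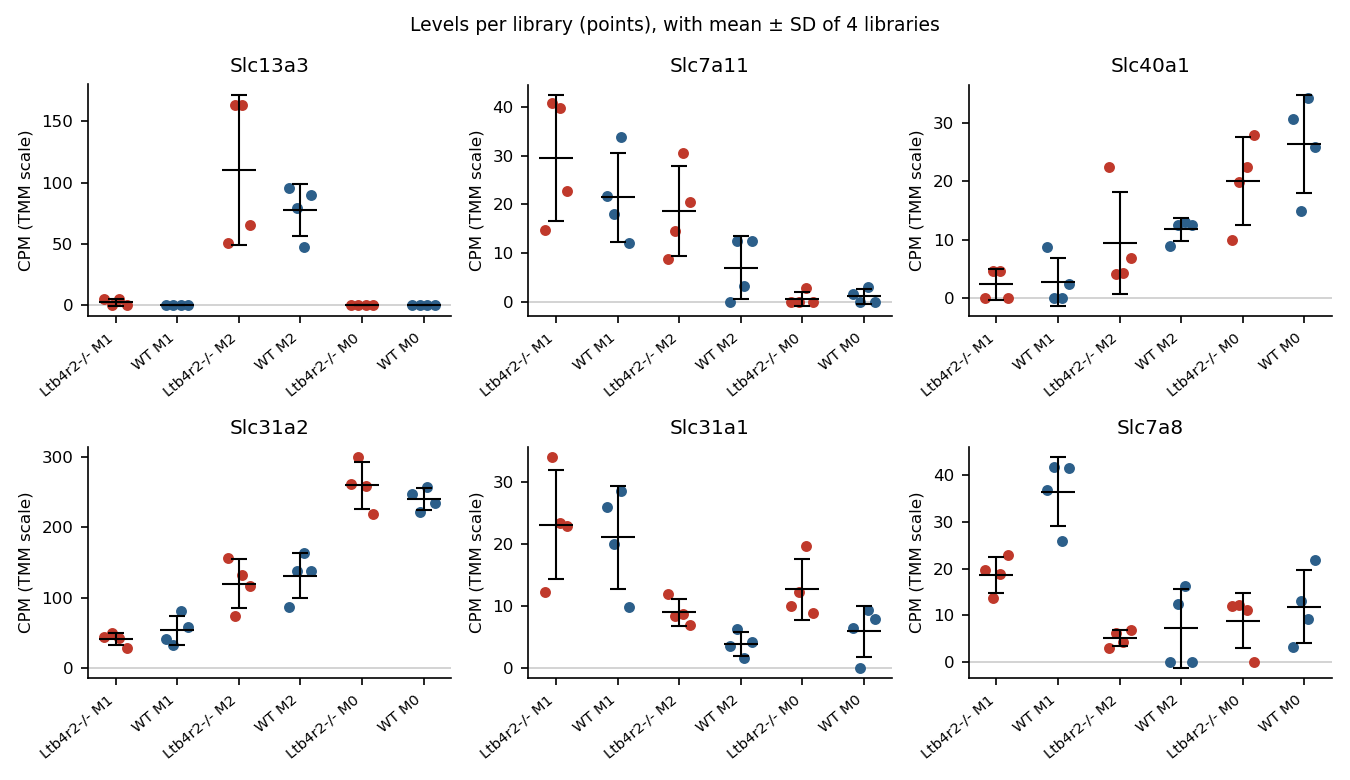
Levels of 6 members without an opposite-strand exon, in CPM on a linear axis, with 1 point per library and the mean ± SD of 4 libraries, Ltb4r2-/- left of WT in each state. Slc13a3 is at 0 in all M0 libraries and at 47.3 to 163 CPM in M2, Slc7a11 has its highest means in M1, and Slc31a2 and Slc40a1 have their lowest means there.

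Of 7 tested members of the sugar and monocarboxylate transporter families, from which Slc16a3 was left out by name, none rose in M1 against M0. In Ltb4r2-/- cells 6 fell and in WT cells 5, where 25.7% and 24.3% of all genes fell. Their medians were -1.42 and -1.22. The 3 with the most counts overlap an opposite-strand exon. Slc5a2 had 308, 331, 299.8 and 319.7 CPM in Ltb4r2-/- M1, against 889, 926, 795 and 832 CPM in Ltb4r2-/- M0 (-1.45 ± 0.11, adjusted p = 6.61e-13, edgeR). WT cells had 375, 375, 348 and 361 CPM in M1, against 842, 972, 826 and 768 CPM in M0 (-1.22 ± 0.11, adjusted p = 3.25e-11). Slc5a6, which belongs to the family of sugar cotransporters by sequence but carries biotin and pantothenate, fell by -1.205 ± 0.12 in Ltb4r2-/- and -1.12 ± 0.12 in WT cells.

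The monocarboxylate transporter family (MCTs, which include the lactate carriers) had 4 members, with Slc16a3 left out by name. Slc16a4 (MCT5, no overlap) had 7.38, 20.4, 14.1 and 2.85 CPM in Ltb4r2-/- M1, against 43.9, 48.9, 30.9 and 24.9 CPM in Ltb4r2-/- M0 (-1.66 ± 0.55, adjusted p = 0.0106, edgeR). WT cells had 2.17, 3.62, 10.4 and 2.44 CPM in M1, against 37, 42.7, 29.5 and 43.6 CPM in M0 (-3.025 ± 0.63, adjusted p = 0.000129). Both sets of M1 libraries lay below those of M0. Slc16a5 and Slc16a6, both overlapping, fell by -1.66 ± 0.30 and -1.42 ± 0.19 in Ltb4r2-/- and by -1.38 ± 0.29 and -1.32 ± 0.19 in WT cells. Slc16a11 fell in Ltb4r2-/- cells, with 7.03 to 20 CPM in M1 against 23.5 to 53.9 CPM in M0 (-1.37 ± 0.44, adjusted p = 0.00859), and not in WT cells by this test (-0.19 ± 0.43, adjusted p = 0.742). In M2 against M0, 2 members of the class fell in Ltb4r2-/- cells, Slc5a6 and Slc16a6, the second of them not without Ltb4r2-/- M2 replicate 3, and none passed in WT cells.

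Of 7 transporters of inorganic ions, 2 rose and 2 fell in M1 in each genotype. Slc24a5 (overlapping Myef2) rose in both polarized states on the TMM scale, with 608, 736, 759 and 711 CPM in Ltb4r2-/- M1 and 599, 784, 714 and 713 CPM in Ltb4r2-/- M2, against 393, 414, 461 and 461 CPM in Ltb4r2-/- M0. WT cells had 791, 779, 634 and 766 CPM in M1 and 801, 694, 584 and 733 CPM in M2, against 437, 559, 433 and 460.2 CPM in M0. The M1 changes, 0.70 ± 0.12 and 0.65 ± 0.12, shrank to 0.10 and 0.04 under total-count scaling and no longer passed, while the M2 changes, 0.70 ± 0.12 and 0.57 ± 0.12, still passed. Its opposite-strand gene Myef2 fell in M1, by -3.13 ± 0.28 in Ltb4r2-/- and -3.92 ± 0.30 in WT cells.

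Slc26a1, a sulfate transporter (overlapping Idua), fell in M2, with 338, 313, 428 and 394 CPM in Ltb4r2-/- M2, against 645, 642, 627 and 660.3 CPM in Ltb4r2-/- M0 (-0.805 ± 0.13, adjusted p = 9.19e-06, edgeR). WT cells had 452, 278, 424 and 418 CPM in M2, against 693, 658, 612 and 595 CPM in M0 (-0.70 ± 0.13, adjusted p = 9.72e-05). In M1 it fell in WT cells by -0.32 ± 0.13 (adjusted p = 0.0422, lost without any of 3 libraries), and in Ltb4r2-/- cells it differed by -0.15 ± 0.13 (adjusted p = 0.341). The phosphate transporter Slc20a1 (PiT1, overlapping) fell in M1 by -0.91 ± 0.37 in Ltb4r2-/- and -1.04 ± 0.37 in WT cells. Slc4a2, the chloride/bicarbonate exchanger AE2 (overlapping Fastk), differed between M2 and M0 by 1.03 ± 0.47 in Ltb4r2-/- cells (adjusted p = 0.0948) and rose in M2 in WT cells by 1.41 ± 0.48 (adjusted p = 0.0289), a call lost without any of 5 libraries. Slc26a6 rose in M2 in WT cells (0.76 ± 0.29, adjusted p = 0.0479) and fell in M1 in Ltb4r2-/- cells (-0.87 ± 0.32, adjusted p = 0.0226). Its differences from M0 in Ltb4r2-/- M2 (0.03 ± 0.29, adjusted p = 0.961) and WT M1 (-0.47 ± 0.32, adjusted p = 0.222) did not pass. Its WT M2 call lay near the threshold with overlapping libraries. That call was lost under relative log expression (RLE) scaling and under DESeq2, each of which left 3 of the 4 members that rose in WT M2. With no filter the 4 became 2. Slc26a10 of the same family (overlapping B4galnt1) passed in neither comparison with M0, and the same was true of Slc37a1, a sugar-phosphate transporter (overlapping AC154652.2), and of Slc38a1, Slc7a6os and Slc35c1.

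Slc13a3 (chromosome 2, 165405028 to 165473230, no overlap) encodes the sodium-coupled transporter NaDC3, which takes up dicarboxylates such as succinate and 2-oxoglutarate. It had 0 counts in all M0 libraries and in all WT M1 libraries, and 2 counts in each of 2 Ltb4r2-/- M1 libraries. In M2 it had 50.7, 163, 163 and 65.1 CPM in Ltb4r2-/- cells and 95.2, 79.0, 47.3 and 89.8 CPM in WT cells, or 225 and 164 counts in all. Against a floor of 3 counts over the M0 group, M2 was at least 87.2-fold higher in Ltb4r2-/- and at least 59-fold higher in WT cells. It passed the filter through its M2 libraries alone, so these values are a description with no test. WT M1 was at least 46.2-fold lower than WT M2. No other member was at 0 in all 4 libraries of a group. Slc22a23, of the organic ion transporter family, passed in neither comparison with M0.

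Among 5 members of the nucleotide sugar and vesicle families, Slc35e2 (overlapping Gm16023) fell in M1 by -1.11 ± 0.21 in Ltb4r2-/- and -0.94 ± 0.21 in WT cells, and in M2 by -0.795 ± 0.20 in Ltb4r2-/- and -0.61 ± 0.20 in WT cells (the last lost without any of 4 libraries). Slc18a2, the vesicular monoamine transporter VMAT2 (overlapping Gm29261), fell in M1 in Ltb4r2-/- cells by -0.50 ± 0.14 (adjusted p = 0.00295, edgeR), with overlapping libraries. In WT cells it differed by -0.255 ± 0.14 and did not pass (adjusted p = 0.124). Slc35a4, of the nucleotide sugar transporter family (overlapping Apbb3), rose in M1 in WT cells by 1.12 ± 0.30 (adjusted p = 0.00201, lost under total-count scaling) and fell in M2 in Ltb4r2-/- cells by -1.37 ± 0.33 (adjusted p = 0.00148). Its differences from M0 in Ltb4r2-/- M1 (0.56 ± 0.30, adjusted p = 0.116) and WT M2 (0.03 ± 0.31, adjusted p = 0.965) did not pass. Slc35g2 fell in M1 in WT cells by -2.11 ± 0.72 (adjusted p = 0.0148, edgeR), with overlapping libraries. In Ltb4r2-/- cells it differed by -1.60 ± 0.70 and did not pass (adjusted p = 0.0527), though all M1 libraries there lay below those of M0. Of the vitamin class, Slc23a1, the ascorbate transporter SVCT1, had 4.16 to 12.5 CPM in WT M2 against 16.1 to 37.7 CPM in WT M0 (-1.56 ± 0.52, adjusted p = 0.024, lost without any of 4 libraries), and the lysosomal transporter Slc46a3 passed in neither. In Ltb4r2-/- cells Slc23a1 differed between M2 and M0 by -0.20 ± 0.46 (adjusted p = 0.781). Only 1 of 47 mitochondrial carrier symbols was a member, the glutamate carrier Slc25a18 (overlapping), which fell in M1 by -1.515 ± 0.58 in Ltb4r2-/- and -1.25 ± 0.53 in WT cells, with the calls lost without any of 3 and of 6 libraries. Slc25a18 and Slc35g2 passed the filter with no M1 library, so their M1 calls are a description. None of 6 fatty acid transporter symbols reached 120 counts.

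In M1 against M2, 6 members were higher and 14 lower in Ltb4r2-/- cells, with 26.4% and 26.5% of all genes. In WT cells 9 were higher and 17 lower, with 26.2% and 26.3% of all genes. Under total-count scaling, which moved the median of all genes to -0.589 in Ltb4r2-/- and -0.585 in WT cells, these became 1 higher and 24 lower in Ltb4r2-/- and 3 higher and 23 lower in WT cells. The 6 became 3 without Ltb4r2-/- M1 replicate 4, M2 replicate 1 or M2 replicate 4. Members higher in M1 in both genotypes on the TMM scale included Slc35a4 (1.93 ± 0.33 in Ltb4r2-/- and 1.09 ± 0.30 in WT), Slc7a8 (1.83 ± 0.76 and 2.28 ± 0.68) and Slc31a1 (1.34 ± 0.55 and 2.40 ± 0.63). The Ltb4r2-/- calls of Slc7a8 and Slc31a1 were each lost without any of 7 libraries and under total-count scaling, which also lost the WT call of Slc35a4 (0.52). Slc30a7 (-2.63 ± 0.55 and -1.37 ± 0.49), Slc16a5 (-1.795 ± 0.30 and -1.46 ± 0.29) and Slc31a2 (-1.53 ± 0.26 and -1.33 ± 0.24) were lower in M1 in both. In Ltb4r2-/- cells Slc4a2 (-1.86 ± 0.55) and Slc25a18 (-1.74 ± 0.58) were also among the members furthest below M2. In WT cells these were Slc1a5 (-2.76 ± 0.67), Slc16a4 (-2.55 ± 0.65), Slc40a1 (-1.99 ± 0.80) and Slc38a10 (-1.90 ± 0.73), while Slc23a1 (1.72 ± 0.53), Slc7a11 (1.62 ± 0.68) and Slc6a6 (1.41 ± 0.27) were above M2. The WT calls of Slc40a1 and Slc7a11 were lost without any of 6 and of 5 libraries, and total-count scaling lost those of Slc23a1 (1.16) and Slc7a11 (1.065). Slc43a2 was higher in M1 by 0.74 ± 0.15 in Ltb4r2-/- and 0.39 ± 0.15 in WT cells, and the sulfate transporter Slc26a1 by 0.65 ± 0.13 and 0.38 ± 0.13. Under total-count scaling their WT values turned to -0.18 and -0.185, and their Ltb4r2-/- values, 0.17 and 0.085, no longer passed. Slc7a8 and Slc31a1 passed the filter with no M2 library. Slc30a7, Slc4a2, Slc25a18, Slc1a5, Slc16a4, Slc40a1 and Slc38a10 passed it with no M1 library. The M1 against M2 calls of these members are therefore a description, though the counts of members above include them.

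The responses of the genotypes share no library. Of the 22 members called in M1 against M0 in each genotype, 16 were called in both with 1 direction (72.7% of each list), 3 higher and 13 lower, and no member was called in opposite directions. Over all 3047 genes tested the shared calls were 83.5% of the Ltb4r2-/- and 86.2% of the WT list. Of these 16 members, 6 have no opposite-strand exon: Slc7a11, which rose, and Slc31a2, Slc16a4, Slc1a5, Slc40a1 and Slc7a15, which were lower. Of these 6, only Slc31a2 passed the filter through libraries of all 3 states, and the limit given above applies to the others. In M2, 7 members were called in both, 53.8% of the 13 Ltb4r2-/- calls and 63.6% of the 11 WT calls, against 68.8% and 81.3% over all genes tested. Slc13a3 and Slc24a5 were higher, and Slc31a2, Slc43a2, Slc26a1, Slc35e2 and Slc7a15 lower. Of these 7, Slc13a3 and Slc7a15 passed the filter through 1 state alone, so their calls are a description. As a description, the log2 fold changes of both genotypes had a Pearson r of 0.89 in M1 over the 42 members other than Slc13a3, and 0.93 in M2 over 43 members, or 0.77 without Slc13a3, against 0.93 and 0.811 over all genes tested. The members are not independent replicates.

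**Figure D4:**
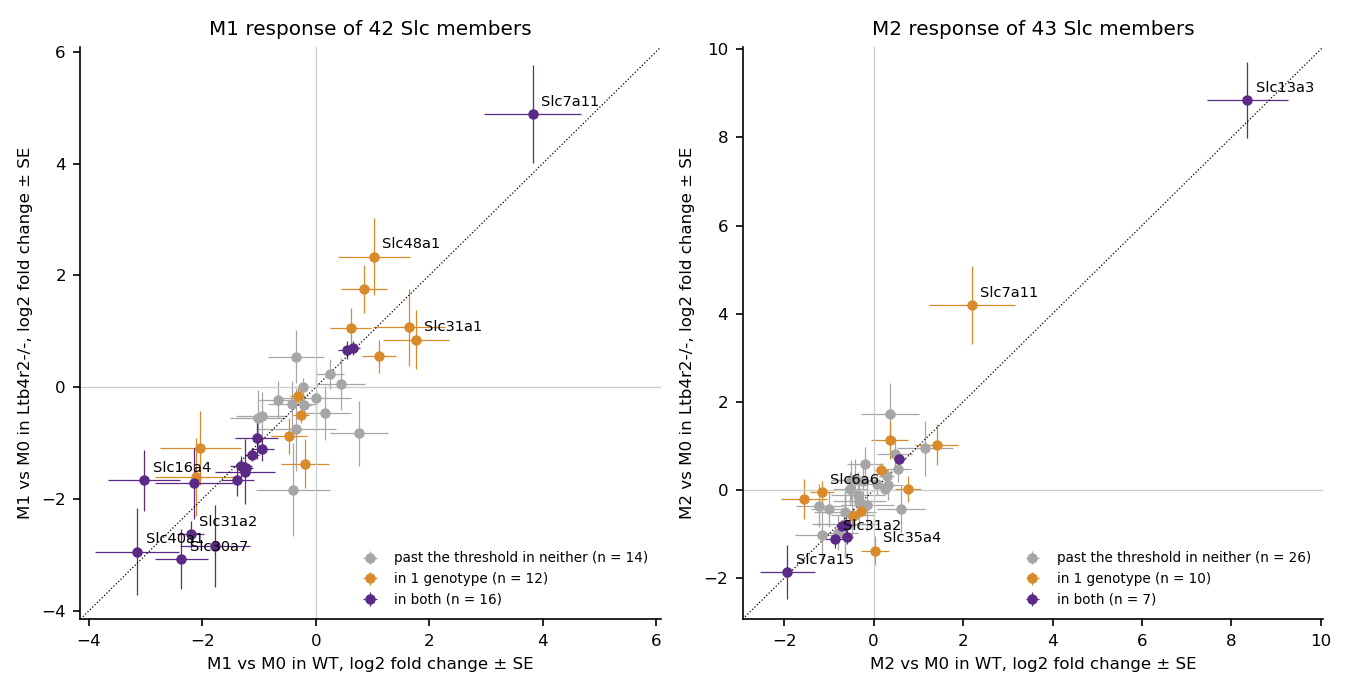
Log2 fold change ± SE of each Slc member against M0 in Ltb4r2-/- (y axis) and WT cells (x axis), for M1 on the left (42 members, without Slc13a3, which had 0 counts in WT M1 and M0) and M2 on the right (43 members, where the fitted value of Slc13a3 depends on the prior count), with a dotted line of equality. In M1 16 members passed in both genotypes, 12 in 1 and 14 in neither.

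The question of the study was what loss of BLT2 changes in each state, and no Slc member passed the adjusted threshold between Ltb4r2-/- and WT cells in any state. Of members, 22 were tested in M1, 30 in M2 and 35 in M0, and over all genes 0.0509%, 0.19% and 0.131% passed. At an unadjusted p under 0.05 there were 2, 3 and 2 members, against 7.49%, 2.99% and 5.91% of all genes tested. DESeq2 on the same libraries also called 0 in each state. The median log2 fold change over members was -0.068 in M1, -0.004 in M2 and -0.001 in M0.

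In M1, libraries of 2 of the 22 members tested did not overlap between the genotypes, against 3.57% of all genes tested. Slc7a8 had 19.7, 13.6, 18.7 and 22.8 CPM in Ltb4r2-/- M1, against 36.9, 41.6, 26 and 41.5 CPM in WT M1 (-0.95 ± 0.39, adjusted p = 0.625, edgeR). The exact two-sided permutation p was 0.0286, the smallest that 4 against 4 libraries can give over 70 arrangements. Slc7a8 lies 0.98 Mb from Ltb4r2 on chromosome 14, the one member within 10 Mb, and in M0 and M2 its libraries overlapped (exact permutation p = 0.514 in M0 and 0.629 in M2). Slc5a2 was the other of these, with 299.8 to 331 CPM in Ltb4r2-/- M1 against 348 to 375 CPM in WT M1 (-0.20 ± 0.12, adjusted p = 0.693, exact permutation p = 0.0286). Slc43a2 had 0.26 ± 0.11 (adjusted p = 0.625) and Slc6a6 -0.45 ± 0.25 (adjusted p = 0.688) in M1, with overlapping libraries. Of the 22 members too low for the M1 fit, 3 had libraries that did not overlap: Slc39a5 with 20 to 28.1 CPM in Ltb4r2-/- against 15.6 to 19.9 CPM in WT cells, Slc39a13 with 0 to 11.7 CPM in Ltb4r2-/- against 12.2 to 21.7 CPM in WT cells, and Slc7a15 with 0 to 4.53 CPM in Ltb4r2-/- against 4.88 to 8.67 CPM in WT cells. None of the 30 members tested in M2 or the 35 tested in M0 separated the genotypes, against 2.18% and 3.5% of all genes tested. Of the 14 too low for the M2 fit, 2 did: Slc23a1 with 13.1 to 42.8 CPM in Ltb4r2-/- against 4.16 to 12.5 CPM in WT cells, and Slc31a1 with 6.85 to 11.9 CPM in Ltb4r2-/- against 1.63 to 6.23 CPM in WT cells. Each of these 5 rests on 4 to 52 counts a group and has an exact permutation p of 0.0286, the smallest possible, with no adjusted value. The shares given above cover genes in the fits alone. The share among all genes too low for them was not computed, so these 5 are a description and their number is not read as a result. Slc43a2 had the smallest unadjusted p in M0, with 764 to 1134 CPM in Ltb4r2-/- against 569 to 801 CPM in WT cells (0.34 ± 0.14, adjusted p = 0.731, exact permutation p = 0.171). It was followed in M0 by Slc3a1 (-0.28 ± 0.13, adjusted p = 0.831) and Slc16a11 (0.69 ± 0.36, adjusted p = 0.872).

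In M2, Slc35a4 had 19.4, 14.6, 32.6 and 18.9 CPM in Ltb4r2-/- cells, against 65.3, 27, 40.8 and 50.1 CPM in WT cells (-1.10 ± 0.38, adjusted p = 0.999, edgeR, exact permutation p = 0.0571), with 1 library of each genotype inside the other's range. Slc35c1, the GDP-fucose transporter of the Golgi, had 34.3, 31.3, 26.1 and 37.7 CPM in Ltb4r2-/- M2, against 31.7, 10.4, 13.1 and 10.4 CPM in WT M2 (0.97 ± 0.43, adjusted p = 0.999, exact permutation p = 0.0857). Slc6a6 had 37.3, 66.9, 52.2 and 70.3 CPM in Ltb4r2-/- M2, against 44.1, 35.3, 32.6 and 29.2 CPM in WT M2 (0.68 ± 0.31, adjusted p = 0.999, exact permutation p = 0.0571). Slc13a3, which was measurable in M2, differed there by 0.495 ± 0.36 (adjusted p = 0.999). None of these differences passed the correction, and at this depth a failed test does not show equal levels.

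**Figure D5:**
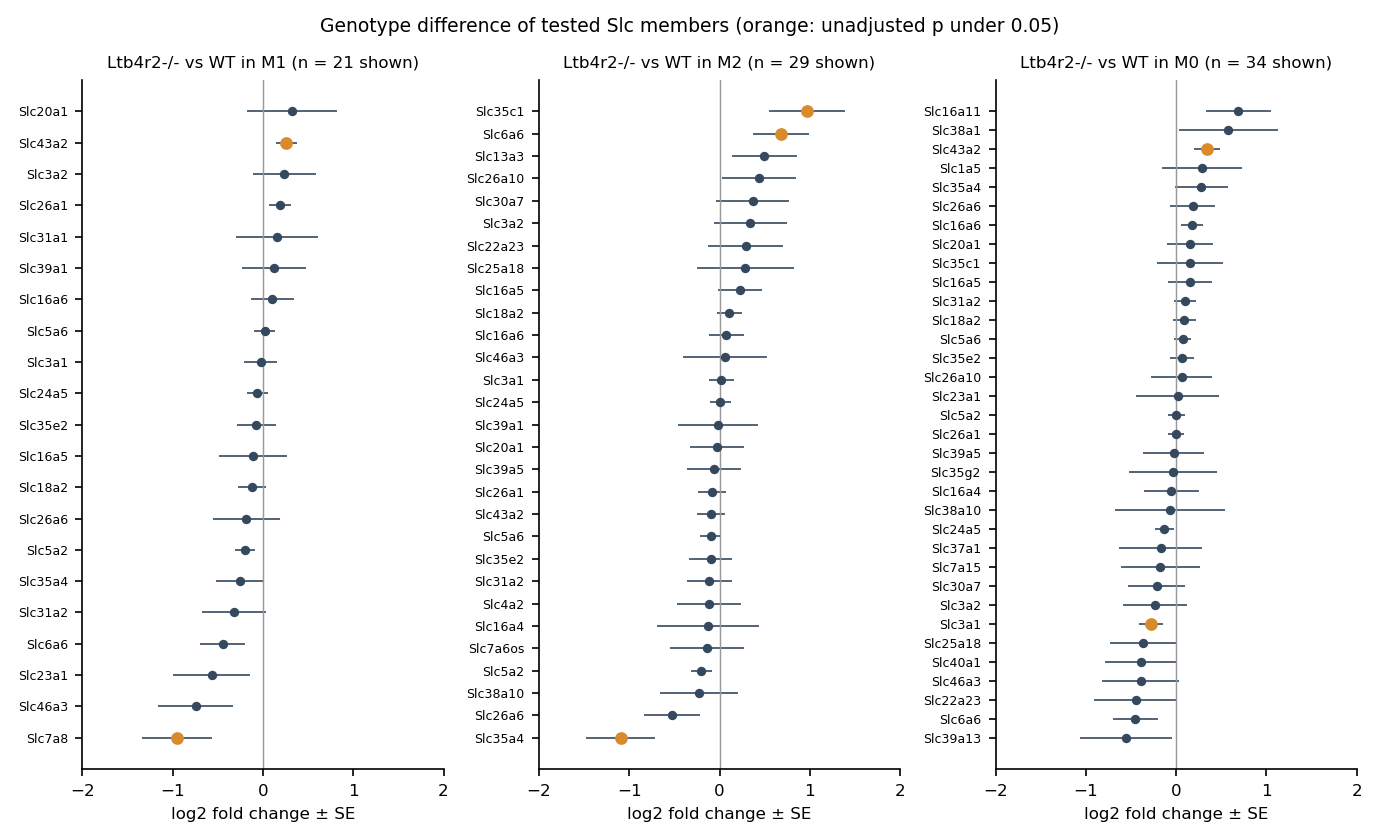
Log2 fold change ± SE of Ltb4r2-/- against WT for the Slc members tested in M1, M2 and M0, 1 of them not shown, in order of the change, with orange points for an unadjusted p under 0.05. The points run from -1.10 (Slc35a4 in M2) to 0.97 (Slc35c1 in M2), and no point passed after adjustment.

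No difference in response between the genotypes passed the interaction test (0 of 43 members, with 0.0328% of all genes for M1 and for M2, and 1 and 3 members at an unadjusted p under 0.05, against 4.63% and 4.73% of all genes). DESeq2 called 0 as well. The smallest unadjusted p belonged to Slc35a4 in M2, whose M2 response was lower in Ltb4r2-/- than in WT cells by -1.40 ± 0.46 (adjusted p = 0.946, edgeR). It was followed by Slc6a6 in M2 (1.11 ± 0.37, adjusted p = 0.969). In M1 the smallest belonged to Slc4a2 (-1.59 ± 0.77, adjusted p = 1.0). Slc16a11, called in M1 in Ltb4r2-/- cells alone, differed by -1.18 ± 0.62 (adjusted p = 1.0). The M1 responses of Slc39a1 and Slc48a1 differed by 0.91 ± 0.60 and 1.31 ± 0.94 (adjusted p = 1.0 for both).

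Other transport genes, from lists by gene symbol, were few at this depth. The counts that follow stand beside 27.1% of all genes tested that rose and 25.7% that fell in Ltb4r2-/- cells, and 26.9% and 24.3% in WT cells. Of 50 ABC transporter symbols 5 were tested, and in M1 against M0 0 rose and 2 fell in Ltb4r2-/- and 0 rose and 1 fell in WT cells. Of 26 subunits of the vacuolar proton pump 7 were tested, of which 2 rose and 1 fell in Ltb4r2-/- and 1 rose and 1 fell in WT cells. Of 39 P-type ATPases 6 were tested, of which 2 rose and 2 fell in Ltb4r2-/- and 2 rose and 1 fell in WT cells. Of 63 genes classed as solute carriers under other symbols 6 were tested, of which 3 rose and 2 fell in Ltb4r2-/- and 3 rose and 3 fell in WT cells.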

How the data were processed

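Strand-specific RNA-seq libraries of the 24 macrophage cultures were trimmed with cutadapt, aligned to mm10 with STAR and counted per gene with HTSeq by the authors, who deposited raw counts for all libraries. The strand setting is not given in the sources used here. A second table of log2 values, deposited by the authors after relative log expression scaling, was not used. Counts were fitted with edgeR 4.0.16 (quasi-likelihood F test, R 4.3.3, limma 3.58.1) with TMM factors after filterByExpr (minimum count 10, minimum total 15). The states were compared in 1 fit of 24 libraries, and the genotypes in a fit of the 8 libraries of each state. P-values were adjusted by Benjamini-Hochberg over all genes tested, at 0.05. Single genes were also compared by an exact permutation test. Where a group was at 0, a floor of 3 counts over the group was used, and ratios against 1 to 3 counts have 95% exact counting intervals. Alternatives were RLE or total-count scaling, other filters, a replicate block, DESeq2 1.42.0, other sets of libraries and leaving out each library. The scripts were tested on simulated data. Members with values were those with the smallest p in both genotypes, the most counts in a class, the smallest p by genotype or interaction, or the largest M1 against M2 differences, and those at the edge of the count limit. The values of 1 member are not reported here, though counts over the members include it. Further members were named after their values were seen. The members, classes and lists were chosen with earlier results of these data known. No 2 libraries of a group agreed within counting noise (smallest chi-square per degree of freedom 2.307).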

Additional observations from a re-analysis of the deposited data

Results flagged for a closer look

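Groups of 4 libraries were examined for 34 of the 44 members, and the other members were not examined. In 10 of these 201 groups (4.98%), 1 library lay far from the other 3 by Dixon's criterion, which chance gives in about 1 in 20. Values are in CPM. In Ltb4r2-/- cells these were Slc40a1 in M2 replicate 1 at 22.4 (others 4.18 to 6.85), Slc7a11 in M0 replicate 3 at 2.81 (others 0), Slc5a6 in M0 replicate 2 at 834 (others 910 to 920) and Slc7a8 in M0 replicate 4 at 0 (others 11.2 to 12.2). In WT cells they were Slc24a5 in M1 replicate 3 at 634 (others 766 to 791) and Slc7a15 in M1 replicate 1 at 8.67 (others 4.88 to 5.43). WT M2 replicate 1 held 3 of them, Slc40a1 at 8.82 (others 12.5 to 13.1), Slc16a11 at 8.82 (others 14.5 to 14.7) and Slc35c1 at 31.7 (others 10.4 to 13.1), and WT M2 replicate 2 held Slc4a2 at 18.7 (others 32.6 to 35.3).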

How the results depend on the processing

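Of 96 calls of single members between states, 61 held under every alternative they were run under (51 of the 96 could be run at a mean of 20 counts, 72 were run in the 8 libraries compared, and 37 of the 61 had both), 35 were lost under at least 1, and 2 of these changed sign, both under total-count scaling in WT cells in M1 against M2: Slc43a2 (-0.18) and Slc26a1 (-0.185). Counts of members that moved by over 1.5 times follow. In M1 against M0, total-count scaling gave 3 higher and 26 lower in Ltb4r2-/- and 1 higher in WT cells, no filter gave 3 higher in WT cells, and a mean of at least 20 counts, which tests fewer members, gave 2 higher and 9 lower in Ltb4r2-/- and 3 higher and 9 lower in WT cells. In M2 against M0, no filter gave 3 and 2 higher in Ltb4r2-/- and WT cells, a mean of 20 counts 2 and 1, and the 8 libraries compared alone 3 in Ltb4r2-/- cells. Leaving out each library gave 3 to 5 higher in Ltb4r2-/- and 2 to 4 higher and 4 to 9 lower in WT cells. In M1 against M2, total-count scaling gave 1 higher and 24 lower in Ltb4r2-/- and 3 higher in WT cells, no filter 3 and 5 higher, a mean of 20 counts 3 higher and 8 lower in Ltb4r2-/- and 4 higher and 8 lower in WT cells, and the 8 libraries alone 11 lower in WT cells. Leaving out each library gave 3 to 5 higher in Ltb4r2-/- cells. The genotype and interaction counts were 0 under every alternative run.

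For libraries with the same replicate number, the correlation of their deviations was -0.167 to 0.108 over 36 pairs, over 0.1 in 1. The lowest value was between the genotypes, in M2. Within a genotype it was -0.053 to 0.108, in most pairs slightly above the mean correlation with the other numbers. In the column headers of the counts the number is joined to the genotype and recurs across the 3 states, with no animal named. Whether libraries with 1 number came from 1 animal cannot be told from these values, and the labels do not say. The main comparisons of the states did not use the number. With the replicate block, M1 against M0 gave 7 higher and 18 lower in Ltb4r2-/- and 6 higher and 14 lower in WT cells, M2 against M0 gave 4 and 8 in Ltb4r2-/- and 3 and 8 in WT cells, and M1 against M2 gave 4 and 14 in Ltb4r2-/- and 8 and 15 in WT cells. Depth limits the members with few counts: in M1, 22 of 44 could be tested between the genotypes.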
